A study of Mus musculus with 27 samples.

Results

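The genes described here are 9 transcripts that respond to glucocorticoids, the adrenal stress steroids (corticosterone in mice), out of 26264 gene symbols in the deposited table. They were selected by symbol, in the lower case the table uses: tsc22d3, fkbp5, sgk1, nr3c1, errfi1, ddit4, cdkn1a, pdk4 and zbtb16. All 9 were present and all 9 passed the filter on low values, a mean of at least 1 FPKM (fragments per kilobase of transcript, scaled to the depth of the library), as did 12976 genes in all. The list was chosen from known glucocorticoid targets with earlier results of these data in view, so the values of its members are given as a description, and adjusted p-values are those of fits across all 12976 genes. Other genes are written with mouse capitals.

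All mice were females aged 16 weeks that carried the 5xFAD transgenes on a C57BL6 background, a model of Alzheimer's disease whose human transgenes are expressed in neurons. Vehicle mice (4) received DMSO and sulfobutylether beta-cyclodextrin in saline. R33 mice (5) and R55 mice (5) received one of 2 thiophene thioureas, pharmacological chaperones of the retromer complex, at 10 mM in that vehicle. Every animal was microinjected with 500 nL into the lateral parietal associative cortex of one hemisphere, and cortex blocks of both hemispheres were taken 24 h later, so every group shares the transgenes, the surgery and the solvents, and neither an unoperated nor a non-transgenic animal enters these comparisons. The 27 libraries comprise 4 vehicle, 5 R33 and 5 R55 injected samples and 4 vehicle, 4 R33 and 5 R55 contralateral samples.

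The glucocorticoid receptor, encoded by nr3c1, waits in the cytoplasm in a complex with heat shock protein chaperones. Steroid binding releases it to the nucleus, where it binds as a dimer to palindromic DNA elements and induces target genes within hours. Several targets restrain the response itself or the stress that caused it. The protein of fkbp5 is a co-chaperone that lowers the affinity of the receptor for steroid, and that of tsc22d3 (also called GILZ) inhibits inflammatory transcription factors. The product of sgk1 is a kinase that regulates ion channels and transporters, errfi1 encodes an inhibitor of the epidermal growth factor receptor, and ddit4 encodes an inhibitor of mTORC1 signaling. A cell cycle inhibitor (p21) is made from cdkn1a, a mitochondrial kinase that limits glucose oxidation from pdk4, and a zinc finger repressor from zbtb16. Hypoxia, p53 and neuronal activity also act on several of these genes.

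Depth was 15932198 to 38077032 fragments on genes per library, and each member held between 180 (pdk4) and 5788 (nr3c1) fragments in any library. The mice carry labels of 1 letter (9 mice) or 2 letters (5 mice), of unstated meaning. Both kinds occur in each treatment, and 741 of the 12976 genes differed between them. Markers of choroid plexus summed to 414 to 1669 FPKM in 5 libraries (vehicle mouse J contralateral, R33 mouse K on both sides, R33 mouse N injected and R33 mouse O contralateral) against 4.32 to 155 FPKM in the other 22, and markers of striatum to 150 and 206 FPKM in the injected libraries of vehicle mouse L and R33 mouse N against 31.7 to 69.0 FPKM elsewhere. Several results for the members are given below also without these 6 libraries. In bulk tissue, fewer cells of a type and less RNA per cell cannot be told apart.

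Sequences of the start regions (250 bases before to 50 after a transcription start, RefSeq, mouse build GRCm38.p6) were matched for 7 of the 9 genes, in 16 windows. Nr3c1 and Zbtb16 were not matched. They are shown because members of the list are induced through receptor binding elements, whose consensus hexamer is AGAACA, or TGTTCT on the opposite strand. Either hexamer occurred in 4 of the 16 windows (25%) and in 19.0% of all 32851 windows of the table. The palindrome AGAACA, any 3 bases, TGTTCT was found in 1 of the 16 windows and in 3 of all 32851 (0.00913%). That window belongs to 1 of 6 annotated starts of sgk1, at chr10:21993640-21993939 on the plus strand, where the palindrome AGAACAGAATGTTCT spans 189 to 175 bases before the start and another TGTTCT begins 242 bases before it. A window of tsc22d3, at chrX:140600473-140600772 on the minus strand, holds a lone TGTTCT that begins 185 bases before the start. Both are printed 5′ to 3′ in the direction of transcription, with the hexamers and the palindrome in capitals. The remaining sgk1 matches were 1 hexamer in each of 2 other windows. No match was found in the windows of errfi1, pdk4, ddit4, fkbp5 and cdkn1a, which says only that these letters are not within these 300 bases.
sgk1: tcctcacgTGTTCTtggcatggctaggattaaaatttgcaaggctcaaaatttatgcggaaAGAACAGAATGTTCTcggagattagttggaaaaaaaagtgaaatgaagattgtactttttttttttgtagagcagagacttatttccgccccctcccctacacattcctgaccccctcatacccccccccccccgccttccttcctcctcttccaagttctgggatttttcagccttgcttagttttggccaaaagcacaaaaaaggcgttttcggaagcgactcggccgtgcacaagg
tsc22d3: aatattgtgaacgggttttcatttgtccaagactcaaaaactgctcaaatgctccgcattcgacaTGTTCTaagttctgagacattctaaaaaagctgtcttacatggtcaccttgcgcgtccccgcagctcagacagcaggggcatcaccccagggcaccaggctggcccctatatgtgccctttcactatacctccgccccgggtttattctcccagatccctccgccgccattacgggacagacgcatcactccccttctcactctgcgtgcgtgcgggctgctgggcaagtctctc

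In GRCm39, annotated with GENCODE M39, tsc22d3 lies on chromosome X at 139440091 to 139501408 (minus strand), sgk1 on chromosome 10 at 21758083 to 21875802 (plus strand), ddit4 on chromosome 10 at 59785491 to 59788492 (minus strand) and cdkn1a on chromosome 17 at 29309936 to 29319701 (plus strand). On chromosome 17, fkbp5 spans 28618058 to 28737521 (minus strand). The genes errfi1 (chromosome 4, 150938376 to 150955402, plus strand), pdk4 (chromosome 6, 5483097 to 5496339, minus strand) and zbtb16 (chromosome 9, 48563141 to 48748664, minus strand) complete the list with nr3c1. All are protein coding, and each value is a sum over the transcripts of a gene.

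The members fell into 3 ranges of level, in FPKM, which is a level per transcript length. Averaged over 27 libraries, tsc22d3 read 21.6 FPKM ± 4.09 (SD), ddit4 20.2 ± 2.98, nr3c1 18.0 ± 2.37 and sgk1 16.2 ± 2.48. A middle range held cdkn1a at 9.73 ± 2.93, errfi1 at 9.32 ± 1.07, fkbp5 at 8.82 ± 1.60 and zbtb16 at 8.57 ± 1.74, and pdk4 was lowest at 3.66 ± 0.720. Neighbors within the upper and the middle range lay within 1 SD of each other. Between libraries, cdkn1a ranged from 6.08 to 19.1 FPKM, tsc22d3 from 13.6 to 28.5 FPKM and errfi1 from 7.05 to 11.8 FPKM.

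**Figure D1:**
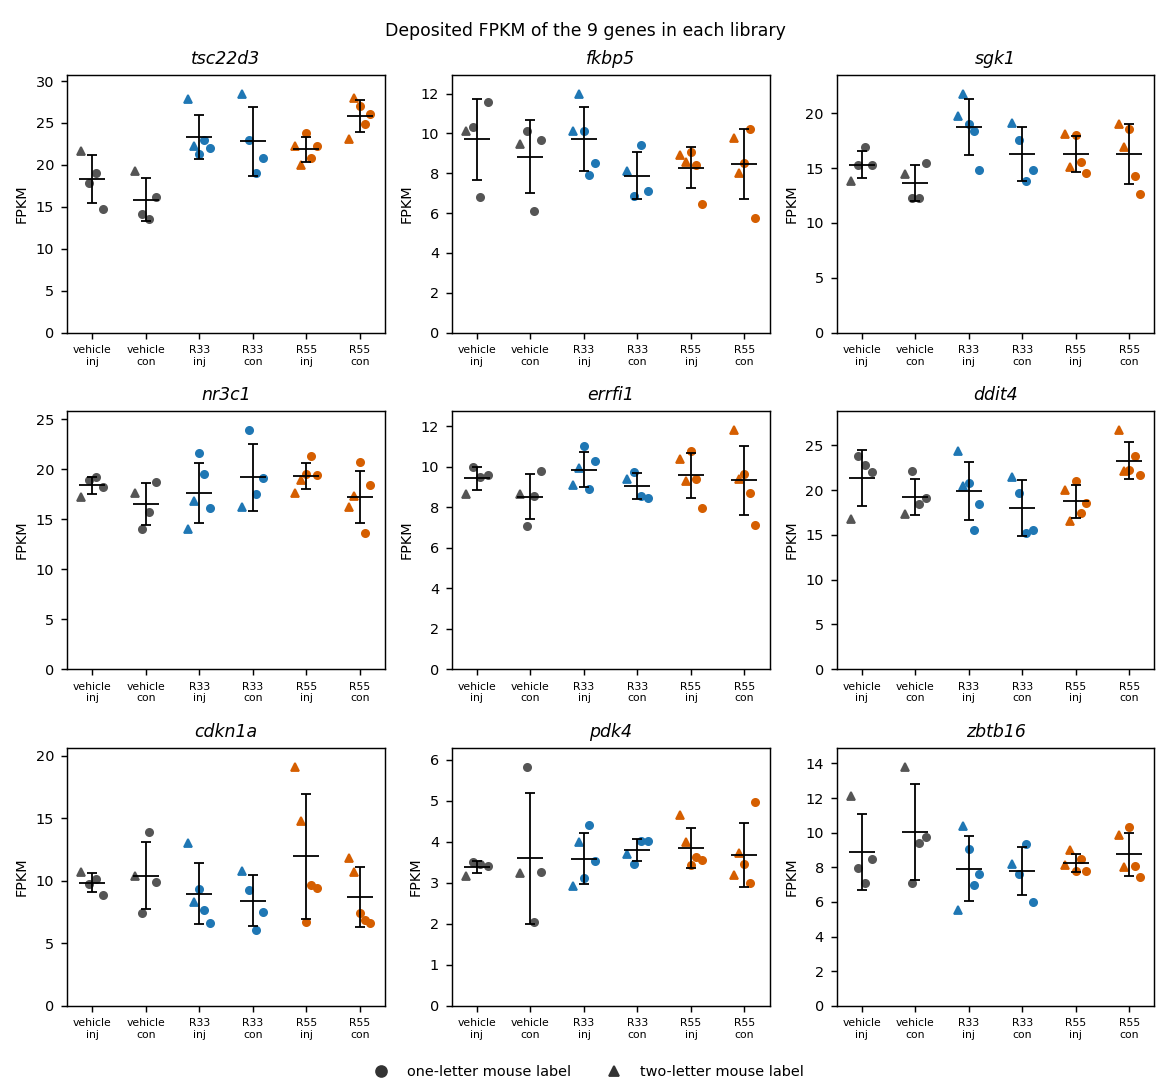
FPKM of each gene (vertical axis, from 0) in every library, by treatment and hemisphere (inj, injected; con, contralateral); bars give the mean and SD of a group of 4 or 5 libraries, circles mice with a 1-letter label and triangles mice with a 2-letter label. In the tsc22d3 panel the contralateral R55 libraries (23.1 to 28.0 FPKM) lie above the contralateral vehicle libraries (13.6 to 19.3 FPKM), and in the cdkn1a panel the triangles of injected R55 (14.8 and 19.1 FPKM) lie apart from its circles.

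The first question was whether the list differed between drug and vehicle as a group. No member passed an adjusted p of 0.05 for R55 against vehicle (background: 0.00771% of all genes, 1 of 12976) or for R33 against vehicle (background 0%) in the limma fit, and with limma voom on fragment counts 0 members passed as well. At an unadjusted p of 0.05, 1 of 9 members was higher with R55, where 8.45% of all genes passed, and 2 of 9 were higher with R33, where 5.87% of all genes passed. Median log2 fold changes were 0.06 over the 9 members and 0.026 over all genes for R55, and 0.05 and 0.018 for R33. The 2 drug comparisons share their vehicle libraries.

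The member with the largest values in both was tsc22d3. Contralateral vehicle libraries read 14.2, 13.6, 16.2 and 19.3 FPKM in mice J, L, M and AH. Contralateral R55 libraries read 27, 24.9, 26.1, 23.1 and 28.0 FPKM in mice P, Q, R, AA and AB. Every R55 library thus lay above every vehicle library on that side, a separation that 1.42% of all genes showed. Injected hemispheres were closer, at 17.8, 19.0, 14.7 and 21.7 FPKM for vehicle mice J, L, M and AH and 23.8, 20.8, 22.3, 22.3 and 20 FPKM for R55 mice P, Q, R, AA and AB, and here the groups overlapped. With R33, the contralateral values were 23.0, 19.0, 20.8 and 28.5 FPKM in mice K, N, O and AD. The injected values were 21.3, 23.0, 22.0, 27.9 and 22.3 FPKM in mice K, N, O, AD and AE. Mouse AD was the highest R33 animal on both sides, and contralateral mouse N lay below vehicle mouse AH.

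Averaged over hemispheres, tsc22d3 read 17.1 FPKM ± 2.32 (SD, n = 4 mice) with vehicle, 23.0 ± 2.96 (n = 5) with R33 and 23.8 ± 1.09 (n = 5) with R55. The fitted log2 fold change was 0.47 (SE 0.088, 1.38-fold on the log2(FPKM + 1) scale) for R55, with an adjusted p of 0.0916. For R33 it was 0.42 (SE 0.090, 1.34-fold), with an adjusted p of 0.505. Neither met the threshold of 0.05. The sign held in all 28 alternatives for each drug, with R55 values from 0.25 to 0.68 and R33 values from 0.34 to 0.51. The R55 call appeared with only the vehicle and R55 libraries in the fit (adjusted p = 0.0469), without R33 mouse AD (0.00815) and without vehicle mouse AH (0.0165), and was absent in the other 25. The fit counts both hemispheres of an animal as separate samples, and its intervals were 0.29 to 0.65 for R55 and 0.24 to 0.61 for R33. With 1 value per mouse the R55 value was 0.47 (SE 0.093, interval 0.27 to 0.67), with an adjusted p of 0.821. The R33 value was then 0.42 (SE 0.093, interval 0.22 to 0.62), with an adjusted p of 0.995.

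The R55 value for tsc22d3 was larger among mice of 1-letter label, 0.58 (3 against 3 mice), than among those of 2-letter label, 0.17 (2 mice against 1). R33 values were 0.42 and 0.28 for the same split. Without the 6 libraries high in choroid plexus or striatum markers the values were 0.46 for R55 and 0.46 for R33, with adjusted p-values of 0.444 and 0.489. Astrocyte markers, from cells known to express tsc22d3, had a positive difference in 5 of 5 genes for R55 and in 4 of 5 for R33, of which Aldh1l1 passed an unadjusted p of 0.05 in each (log2 fold changes 0.38 and 0.31). Their sums ranged from 437 to 938 FPKM with vehicle, 602 to 898 with R33 and 622 to 1096 with R55. Choroid plexus markers had positive R33 values in 5 of 5 genes (median 0.75, 1 past an unadjusted p of 0.05), and oligodendrocyte markers in 5 of 5 for each drug (medians 0.15 for R55 and 0.29 for R33, 0 past it). Fibroblast markers had positive R55 values in 4 of 5 genes (median 0.39), with Col1a2 past that level (0.49, SE 0.228). Alas2, the only red blood cell marker tested, was past it too (0.55, SE 0.229). The other 4 genes of its list (Hba-a1, Hba-a2, Hbb-bs and Hbb-bt) were under 0.1 FPKM in every library. Other lists had negative values. Choroid plexus markers were negative in 4 of 5 genes for R55 (median -0.40). Striatum markers were negative in 5 of 5 for R55 (median -0.26) and positive in 5 of 5 for R33 (median 0.17). Endothelial markers were negative in 4 of 5 for each drug (medians -0.12 for R55 and -0.19 for R33). Mural markers were negative in 5 of 5 for R33 (1 past an unadjusted p of 0.05) and in 3 of 5 for R55. The part of these cell markers in the tsc22d3 values was not tested.

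The kinase gene sgk1 was the other member past an unadjusted p of 0.05, with R33 only. Per mouse it read 14.5 FPKM ± 0.706 (SD, n = 4) with vehicle, 18.1 ± 2.77 (n = 5) with R33 and 16.3 ± 2.12 (n = 5) with R55. Contralateral vehicle mice J, L, M and AH read 12.3, 12.3, 15.5 and 14.5 FPKM, and their injected sides 15.3, 16.9, 15.3 and 13.8 FPKM. R33 mice K, N, O and AD read 17.6, 13.8, 14.8 and 19.1 FPKM on the contralateral side, and mice K, N, O, AD and AE 19.0, 18.4, 14.8, 19.8 and 21.8 FPKM on the injected side. Groups overlapped on both sides, with mouse AE the highest and mouse O inside the vehicle range. The log2 fold change was 0.26 (SE 0.085, adjusted p = 0.834) for R33 and 0.15 (SE 0.083, adjusted p = 0.599) for R55. By label, the R33 value was 0.16 (3 against 3 mice) with 1 letter and 0.51 (2 mice against 1) with 2 letters.

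The other 7 members showed log2 fold changes from -0.12 (fkbp5) to 0.11 (pdk4) for R55 and from -0.23 (zbtb16) to 0.09 (pdk4) for R33. Levels of fkbp5, a commonly used readout of steroid action in brain, were 9.28 FPKM ± 1.91 (SD, n = 4 mice) with vehicle, 9.22 ± 1.63 (n = 5) with R33 and 8.38 ± 1.33 (n = 5) with R55. Their intervals were -0.29 to 0.18 for R33 and -0.35 to 0.10 for R55 (95%, log2). With 1 value per mouse the fkbp5 intervals were wider, -0.32 to 0.31 for R33 and -0.44 to 0.19 for R55. The receptor gene nr3c1 read 17.4 FPKM ± 0.803, 18.1 ± 2.84 and 18.3 ± 1.26 in the same order, with intervals of -0.13 to 0.23 and -0.11 to 0.24. With 1 value per mouse the nr3c1 intervals were -0.15 to 0.25 and -0.14 to 0.26. The R33 value of fkbp5 (-0.05) turned to 0.01 in injected libraries alone, without mouse M and without the 6 libraries high in choroid plexus or striatum markers. The smallest adjusted p among these 7 was 0.700 for R55 and 0.834 for R33.

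The repressor gene zbtb16 had the lowest R33 value, -0.23 (SE 0.114, interval -0.46 to 0.01, or -0.48 to 0.10 with 1 value per mouse). Its mouse means were 7.51, 8.26, 9.12 and 12.9 FPKM in vehicle mice J, L, M and AH, 8.34, 8.17, 6.81, 6.86 and 10.4 FPKM in R33 mice K, N, O, AD and AE, and 9.05, 8.27, 7.63, 9 and 8.52 FPKM in R55 mice P, Q, R, AA and AB. Vehicle mouse AH was the highest of all 14, and the treatments overlapped. Among mice of 1-letter label the R33 value was -0.09 and the R55 value 0.01, against -0.57 and -0.52 with 2 letters, where AH is the lone vehicle mouse.

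The mTORC1 inhibitor gene ddit4 read 20.3 FPKM ± 2.44 (SD, n = 4 mice) with vehicle, 19.2 ± 3 (n = 5) with R33 and 21.0 ± 1.55 (n = 5) with R55. Its R33 value was -0.27 with 1-letter labels (3 against 3 mice) and 0.33 with 2-letter labels (2 mice against 1), so the sign differed between the label groups. The metabolic kinase gene pdk4 varied most within vehicle, where the contralateral libraries of mice L and J read 2.05 and 5.83 FPKM and their injected libraries 3.46 and 3.50 FPKM. R55 libraries of pdk4 ranged from 2.99 to 4.98 FPKM and R33 libraries from 2.92 to 4.41 FPKM, both inside the vehicle range. For errfi1 the mouse means were 8.98 FPKM ± 0.529, 9.53 ± 0.630 and 9.44 ± 1.34 with vehicle, R33 and R55. Its intervals were -0.08 to 0.22 for R33 and -0.09 to 0.21 for R55. With 1 value per mouse they were -0.11 to 0.27 and -0.13 to 0.25.

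Compared with each other at the same dose and time, R55 and R33 gave no member past either threshold in the limma fit (background 0% at an adjusted p of 0.05 and 1.15% at an unadjusted p of 0.05), nor with limma voom. The difference for tsc22d3, R55 minus R33, was 0.05 with an interval of -0.13 to 0.22, and for sgk1 it was -0.10 with an interval of -0.27 to 0.06. The widest interval was that of cdkn1a, -0.14 to 0.51. For errfi1 the interval was -0.15 to 0.13. The fit behind these intervals counts both hemispheres of an animal as separate samples. With 1 value per mouse they were -0.14 to 0.24 for tsc22d3 and -0.36 to 0.08 for sgk1. For cdkn1a and errfi1 they were then -0.22 to 0.58 and -0.20 to 0.16. Neither set of intervals shows that the compounds act alike.

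**Figure D2:**
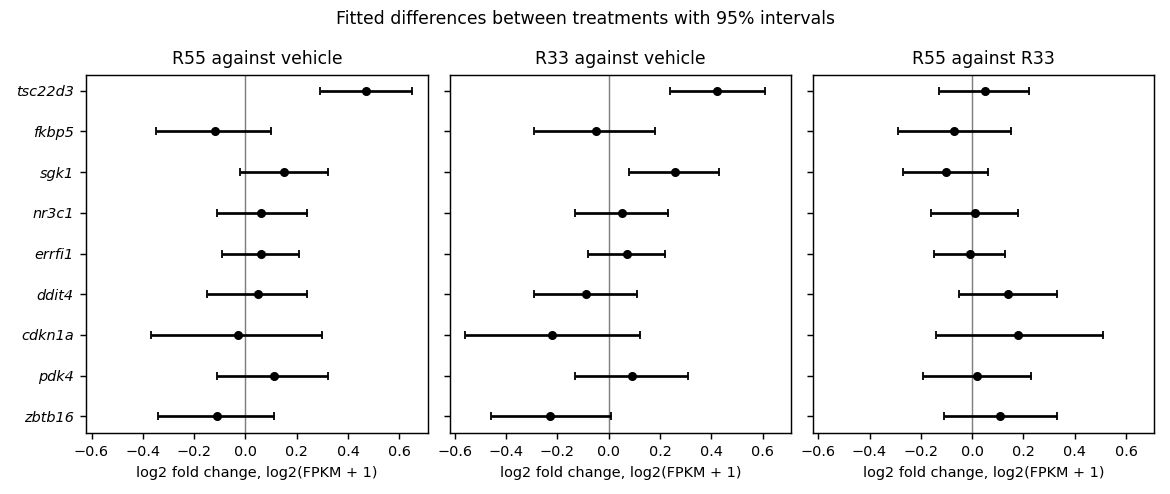
Log2 fold change (horizontal axis, log2(FPKM + 1) scale) of each gene for R55 against vehicle, R33 against vehicle and R55 against R33. Points are fitted values and bars 95% intervals of the fit that counts both hemispheres of a mouse as separate samples. Only tsc22d3 stands clear of 0 in both drug panels (0.47 and 0.42), the sgk1 interval clears 0 with R33 alone, and every interval crosses 0 between the drugs.

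Injected cortex was compared with the uninjected side over all treatments. No member differed between injected and contralateral cortex at an adjusted p of 0.05 (background 0%) or at an unadjusted p of 0.05 (background 3.47%), in the limma fit or with limma voom. Differences, injected minus contralateral, ran from -0.07 (zbtb16) to 0.15 (cdkn1a), with a median of 0.07 over the members and 0.001 over all genes. With each mouse as its own control in a replicate block over 13 mice, 0 members were called as well. On the same contrast 4 of 5 tested injury and reactive astrocyte genes passed an unadjusted p of 0.05, among them Timp1 (0.95, SE 0.363) and Gfap (0.54, SE 0.240), and all 5 had larger values than any member.

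Within R55 mice, 2 of 9 members were lower on the injected side in every animal, as were 5.26% of all genes. The injected minus contralateral difference of ddit4 was -0.08, -0.42, -0.21, -0.40 and -0.40 (log2) in mice P, Q, R, AA and AB. In R33 mice K, N, O and AD it was 0.08, 0.03, 0.23 and 0.18. In vehicle mice J, L, M and AH it was 0.10, 0.29, 0.19 and -0.04. All 5 R55 differences were below 0 and all 4 R33 differences above it, a pattern that 0.547% of all genes showed, and 1.73% of all genes had every R55 difference below every R33 difference. The levels behind them were 18.7 FPKM ± 1.80 injected and 23.3 ± 2.06 contralateral with R55 (SD, n = 5 each), against 21.3 ± 3.10 and 19.2 ± 2.07 with vehicle (n = 4 each).

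For tsc22d3 the difference was -0.18, -0.25, -0.22, -0.05 and -0.47 in R55 mice P, Q, R, AA and AB. Vehicle mice J, L, M and AH gave 0.31, 0.46, -0.13 and 0.16, and R33 mice K, N, O and AD gave -0.10, 0.26, 0.08 and -0.03. Here R55 was below 0 in 5 of 5 mice and vehicle above it in 3 of 4. The interaction of R55 with hemisphere was -0.44 (SE 0.169) for ddit4 and -0.43 (SE 0.161) for tsc22d3, both at an adjusted p of 0.999. These were 2 of 9 members past an unadjusted p of 0.05, where 1.84% of all genes passed. Without vehicle mouse L the count was 0 of 9, and without the 6 libraries high in choroid plexus or striatum markers it was 1 of 9. Within mice, in the replicate block fit, the SEs were 0.096 and 0.123 and both adjusted p-values 0.806. There 3 of 9 members, with cdkn1a the third, passed an unadjusted p of 0.05, where 5.93% of all genes passed, and 0 members were called. The opposite sign was seen for cdkn1a, higher on the injected side in 4 of 5 R55 mice with a mean difference of 0.37 ± 0.29 (SD), and an interaction of 0.41 (SE 0.325, adjusted p = 0.999). For R33 the interactions lay between -0.27 (nr3c1) and 0.15 (fkbp5 and zbtb16), with 0 members past an unadjusted p of 0.05 (background 0.378%, and 0% at an adjusted p of 0.05). Without the 6 libraries high in choroid plexus or striatum markers the R55 interaction was -0.47 for ddit4 and -0.37 for tsc22d3.

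**Figure D3:**
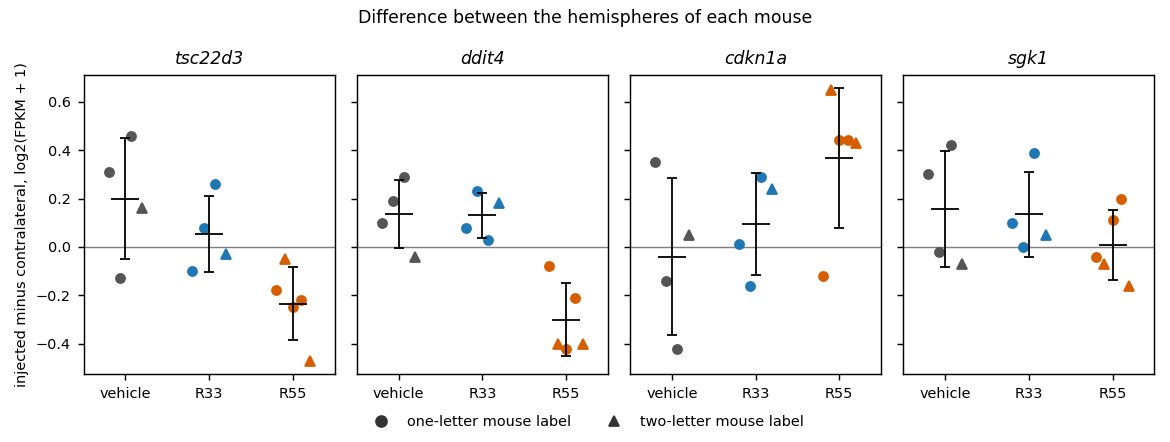
Injected minus contralateral difference (log2(FPKM + 1)) of tsc22d3, ddit4, cdkn1a and sgk1 in each of 13 mice, by treatment; bars give the mean and SD over 4 or 5 mice, circles mice with a 1-letter label and triangles mice with a 2-letter label. All R55 points lie below 0 for tsc22d3 (-0.47 to -0.05) and ddit4 (-0.42 to -0.08), and sgk1 points scatter around 0 in R55 mice (-0.16 to 0.20).

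Mice were also compared by the length of their label, with treatment in the model and 1 value per mouse, because the label split moved many genes. One member, cdkn1a, was called higher in mice of 2-letter label (log2 difference 0.44, SE 0.121, adjusted p = 0.0487), where 5.71% of all genes were called. It was also the lone member past an unadjusted p of 0.05, where 25.7% of all genes passed. Mouse means of cdkn1a were 8.57, 12, 9.38, 9.28, 6.86, 7.05, 7.04, 8.28 and 8.02 FPKM in mice J, L, M, K, N, O, P, Q and R. They were 10.6, 11.9, 8.29, 15.5 and 12.7 FPKM in mice AH, AD, AE, AA and AB. The ranges overlapped, with vehicle mouse L high and R33 mouse AE low for their labels.

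The difference in cdkn1a by label was 0.09 within vehicle (1 mouse against 3), 0.34 within R33 (2 against 3) and 0.77 within R55 (2 against 3). With R55 the injected libraries read 6.69, 9.69 and 9.40 FPKM in mice P, Q and R and 19.1 and 14.8 FPKM in mice AA and AB. The call lies close to the threshold. It was absent in contralateral libraries alone (0.42, adjusted p = 0.375), without a filter on low genes (0.0799), without the 6 libraries high in choroid plexus or striatum markers (0.50, adjusted p = 0.0941) and in 11 of 14 fits that each left out 1 mouse, the exceptions being AE, L and AH. The difference stayed positive in all 25 alternatives, between 0.36 and 0.55.

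The other 8 members had adjusted p-values of 0.203 to 0.974 by label, with differences from -0.14 (nr3c1) to 0.21 (zbtb16). The median was 0.15 over the 9 members and -0.011 over all genes. Cell type markers moved with the same split. All 5 endothelial markers were lower in mice of 2-letter label, among them the receptor gene Flt1 (-1.38, SE 0.123, adjusted p = 1.7e-04) and the tight junction gene Cldn5 (-1.03, SE 0.125, adjusted p = 6.9e-04), and their sums ranged from 33.2 to 50 FPKM against 49.6 to 129 FPKM. Of 5 microglial markers, C1qa (0.66, SE 0.173) and Tmem119 (0.59, SE 0.127) were called higher, and 0 of 5 neuronal markers were called. Lists of 5 astrocyte, fibroblast and mural markers had 1 and 2 called higher and 1 called lower (Aldh1l1 0.47, Col1a2 0.71, Lum 0.88 and Rgs5 -0.60), and of 5 injury genes Timp1 was higher (1.22, SE 0.269, adjusted p = 0.0268). The red blood cell marker Alas2 was called higher as well (0.64, SE 0.175, adjusted p = 0.0486). The part of these markers in the cdkn1a value was not tested.

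**Figure D4:**
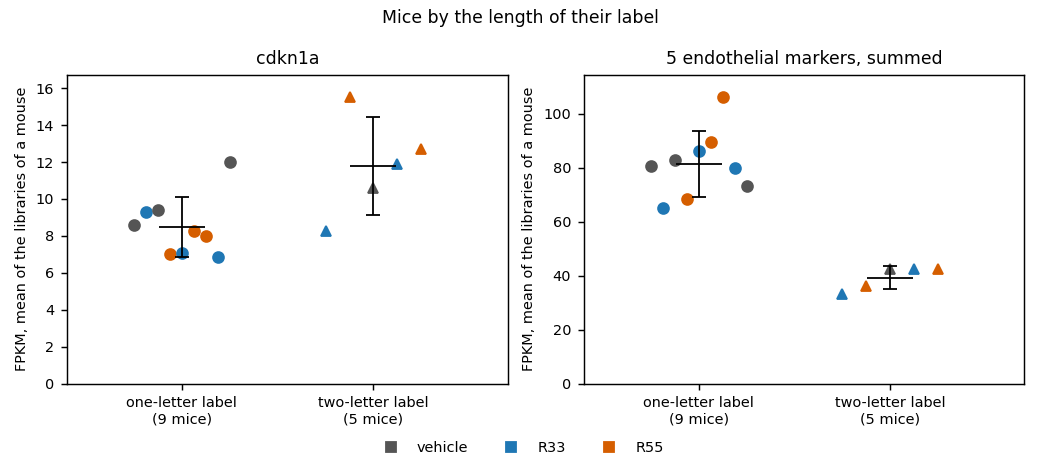
Mean over the libraries of a mouse, in FPKM, of cdkn1a (left) and of the sum of 5 endothelial markers (right), for 9 mice with a 1-letter and 5 with a 2-letter label; colors give the treatment, bars the mean and SD. Cdkn1a is higher on average with 2 letters (11.8 against 8.50 FPKM) with overlapping ranges, and the endothelial sum is lower with 2 letters in every mouse.

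Because each of 13 mice gave both hemispheres, the variance of every gene was split into a part between mice and a part within a mouse, after removal of the mean of each treatment and hemisphere. The share between mice was 0.75 for ddit4, 0.72 for cdkn1a and 0.65 for fkbp5, above 96.0%, 94.0% and 87.6% of all genes tested. Then came errfi1 (0.47), sgk1 (0.45) and tsc22d3 (0.43). Values of zbtb16 (0.30), nr3c1 (0.26) and pdk4 (0.02) lay below the median of all genes, 0.36. In 6 of 9 members the part between mice was thus a larger share than in the median gene. Label length was not removed, so this part includes the difference by label, as for cdkn1a. For ddit4 the SD was 0.161 between mice and 0.092 within a mouse (log2), and for pdk4 it was 0.031 and 0.236.

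The fkbp5 values show such animal differences. R55 mouse R read 6.48 and 5.76 FPKM and vehicle mouse L 6.80 and 6.11 FPKM (injected, contralateral). Other R55 mice lay between 8.02 and 10.2 FPKM and other vehicle mice between 9.48 and 11.6 FPKM. Each of these 2 mice was thus low on both sides. Mouse L was also the highest vehicle animal for cdkn1a, at 13.9 FPKM contralateral.

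**Figure D5:**
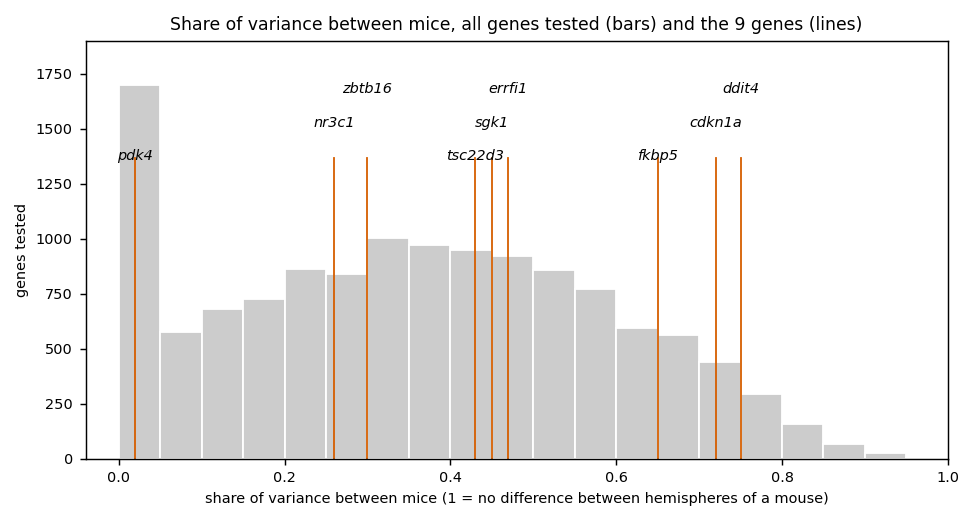
Share of variance between mice (horizontal axis; values under 0 are drawn at 0) for all 12976 genes tested (bars, number of genes) and for the 9 genes (lines). Ddit4 (0.75), cdkn1a (0.72) and fkbp5 (0.65) lie in the right tail, pdk4 (0.02) at the left edge, and the median of all genes is 0.36.

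The members did not vary as a block. Over 27 libraries, Pearson's r between pairs of members had a median of 0.08 (range -0.37 to 0.70, positive in 21 of 36 pairs), as a description of libraries that share mice, treatments and normalization. Against the mean of the other 8, r was 0.71 for sgk1 and 0.61 for errfi1, between 0.08 and 0.22 for fkbp5, tsc22d3, ddit4 and cdkn1a, -0.01 for nr3c1 and -0.25 for pdk4. The 10 genes outside the list most like its mean profile were Irs1 (r = 0.77), Dusp5 (0.74), Ina (0.74), Cdr2l (0.74), Scd3 (0.73), Ubash3b (0.72), Hspa9 (0.71), Zdhhc3 (0.70), Nefh (0.69) and Mkrn1 (0.69). Of these 10, Dusp5, a phosphatase of ERK kinases, was called higher in mice of 2-letter label (0.50, SE 0.106, adjusted p = 0.0246). So was Nefh, the heavy neurofilament chain (0.34, SE 0.081, adjusted p = 0.0322), where 5.71% of all genes were called. The label difference was left in when the 10 were picked, and 7 of 9 members were higher by label. These 2 calls are therefore partly built in and are no separate result.

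Genes upstream of the list were examined as a group: 16 genes of the receptor complex, its coregulators and steroid supply. None was called with either drug (R55: 9 positive and 7 negative, median 0.01; R33: 7 and 9, median -0.03). At an unadjusted p of 0.05, the genes with R55 included Dnajb1, a heat shock co-chaperone, at 0.18 (SE 0.068), and the corepressor Ncor1 at -0.17 (SE 0.082). With R55, 1 of 16 was higher and 2 were lower at that level, where 8.45% of all genes passed. With R33, 0 were higher and 1 was lower, where 5.87% passed. By label 0 of 16 were called, with Fkbp4, the co-chaperone that competes with Fkbp5, at 0.23 (SE 0.066, adjusted p = 0.0530) and Hsd11b1, which regenerates active corticosterone, at 0.40 (SE 0.157, adjusted p = 0.130).

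Of 22 further glucocorticoid targets, 20 were tested. None was called with R55 (12 positive, 8 negative, median 0.03 against 0.026 over all genes) or R33 (11 and 9, median 0.01 against 0.018). At an unadjusted p of 0.05, R55 had Dusp1, a phosphatase of stress kinases, at 0.56 (SE 0.211) and the clock gene Per2 at 0.23 (SE 0.102). R33 had the astrocyte connexin Gjb6 at 0.25 (SE 0.116). These were 2 of 20 with R55, where 8.45% of all genes passed, and 1 of 20 with R33, where 5.87% passed. Dusp1 also differed at an unadjusted p of 0.05 between R55 and R33 (0.65, SE 0.205), where tsc22d3 did not (0.05). Sult1a1 passed that level with the opposite sign (-0.37, SE 0.124), where 1.15% of all genes passed. Between the drugs 6 of the 20 were positive and 14 negative (median -0.04). In injected cortex the acute phase gene Lcn2 (0.93, SE 0.341) and the factors Cebpd (0.49, SE 0.195) and Cebpb (0.22, SE 0.088) passed the unadjusted level. These were 3 of 20, where 3.47% of all genes passed. For the interaction of R55 with hemisphere, Arrdc2 (-0.46, SE 0.167) and Rhob (-0.28, SE 0.115) passed that level with the sign of tsc22d3 and ddit4. They were 2 of 20, where 1.84% of all genes passed. By label Cebpb alone of the 20 was called (0.30, SE 0.075, adjusted p = 0.0363), where 5.71% of all genes were called. It is named for that call, after its value was seen.

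Other inputs to these genes were described by their own lists. Of 12 immediate early genes, a readout of neuronal activity that includes stress-responsive factors, all 12 had positive values with R55 against vehicle (median 0.38, 4 past an unadjusted p of 0.05, where 8.45% of all genes passed, and 0 called) and 1 of 12 with R33 (median -0.07). Between the drugs, R55 against R33, 12 of 12 were positive (median 0.46), with 7 past an unadjusted p of 0.05, where 1.15% of all genes passed, and 0 called. Arc (0.76, SE 0.313) and Fos (0.65, SE 0.259) had the largest values against vehicle. By label 9 of 12 were positive (median 0.30), with 4 past an unadjusted p of 0.05, where 25.7% of all genes passed. Mice with libraries high in choroid plexus markers had list sums of 163 (vehicle J), 257, 150 and 177 FPKM (R33 K, N and O). Other sums were 264 to 297 FPKM with vehicle, 241 and 443 FPKM with R33 and 270 to 434 FPKM with R55. The part of these libraries in the differences was not tested. Of 10 tested hypoxia targets, the group to which ddit4 also belongs, 0 were called with either drug (medians 0.06 and 0.03). By label 5 were positive and 5 negative (median -0.02), and 2 were called, where 5.71% of all genes were called. Both were lower: Slc2a1, the glucose transporter of the blood-brain barrier (-0.48, SE 0.103, adjusted p = 0.0253), and Vegfa (-0.39, SE 0.091, adjusted p = 0.0316). At an unadjusted p of 0.05, 3 were lower and 2 higher, Egln3 (0.27, SE 0.098) and Adm (0.25, SE 0.078), where 25.7% of all genes passed. Of 10 tested p53 targets, the group to which cdkn1a also belongs, 0 were called with either drug. By label 6 were positive and 4 negative (median 0.03). Phlda3 alone was called, higher (0.29, SE 0.079, adjusted p = 0.0498), where 5.71% of all genes were called.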

How the data were processed

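Cortex blocks of female 5xFAD mice were profiled by stranded mRNA sequencing (Illumina). Per the study's methods, reads were aligned to GRCm39 with HISAT2 and groups compared in a count model with treatment and hemisphere as factors. The counting tool and annotation are not given in the sources used here. The authors deposited FPKM values, in a table of 1 line per gene and library, from which 32 lines that repeat a header were dropped here. Of 32 libraries, 27 were used, and 5 were not used here. The methods state 6 mice per group, and the labels give 4 vehicle, 5 R33 and 5 R55 mice.

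Whole fragments were recovered from the FPKM steps (99.99% of values above 0 lay within 0.1 of a whole number), which gave gene lengths and depths of 15932198 to 38077032 fragments. FPKM fix neither composition nor the length trend between libraries.

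Values were analysed as log2(FPKM + 1) for the 12976 genes whose mean reached 1 FPKM. Fits used limma (version 3.58.1) with an intensity trend, treatment and hemisphere as terms and no mouse term, and Benjamini-Hochberg adjustment over all genes, with a threshold of 0.05. Label length was tested on 1 value per mouse. Fold changes on this scale understate those of low genes. Members and lists were chosen with earlier results of these data known. All 9 members are named. From each list up to 3 genes per comparison and direction with the largest change at an unadjusted p under 0.05 were eligible for naming. Leaving out libraries high in choroid plexus or striatum markers (sums above 400 or 100 FPKM) was chosen after seeing the data. Hemispheres pair within a mouse since they come from the same animal (r of deviations -0.079 to 0.648, 13 mice). In data simulated for R55 against vehicle (12976 genes, 200 changed), 5% of changes of 0.25, 76% of 0.5 and 100% of 1 (log2) were recovered, with 5, 35 and 21 unchanged genes called. At each size, unchanged genes made up more of the calls than the threshold of 0.05. The simulation gave all genes the same spread between mice, and had no label difference and no libraries high in choroid plexus or striatum markers. Between mice the members had SDs from 0.031 (pdk4) to 0.318 (cdkn1a), so these rates do not give the recovery in these data.

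Alternatives were: median-of-ratios scaling, no filter, a minimum of 10 fragments per library, 0.1 as pseudocount, a correlation within mouse, 1 value per mouse, each hemisphere alone, only the treatments compared, label length as a covariate, limma voom on recovered fragments, no intensity trend, removal of the length trend, mouse as a replicate block, and each mouse left out.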

Additional observations from a re-analysis of the deposited data

Results flagged for a closer look

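Single libraries lay far from the rest of their group in 3 of 54 groups of 4 or 5 libraries examined (9 genes in 6 groups each), by the ratio of the gap to the range, a criterion that chance meets in about 1 group of 20. For tsc22d3, R33 mouse AD read 27.9 FPKM in the injected hemisphere, with the next library at 23.0 FPKM. For fkbp5, R55 mouse R read 6.48 FPKM in the injected hemisphere (next 8.43 FPKM), and vehicle mouse L read 6.11 FPKM in the contralateral hemisphere (next 9.48 FPKM). Both mice were also the lowest of their group for fkbp5 on the other side. Mouse AD is in neither group of R55 against vehicle. Leaving it out gave the call of tsc22d3 on that contrast (adjusted p = 0.00815), with the value unchanged at 0.47. Genes called over all genes then rose from 1 to 50. Without mouse L the R55 value of fkbp5 was -0.27 against -0.12.

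The ddit4 difference between hemispheres went opposite ways under the 2 drugs: injected lay below contralateral in 5 of 5 R55 mice and above it in 4 of 4 R33 mice, with R55 minus R33 at -0.43 (log2, means of mouse differences). This difference between the drugs was not tested.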

How the results depend on the processing

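Members called for R55 against vehicle numbered 0 in the fit described and 1 (tsc22d3) with only the compared treatments in the fit, and 0 to 1 when each mouse was left out. Members called by label length numbered 1 (cdkn1a) and became 0 with contralateral libraries alone, with no filter on low genes and without the 6 libraries high in choroid plexus or striatum markers, and 0 to 1 when each mouse was left out. The other 5 counts of members called were 0 under all alternatives run. With mouse as a replicate block (paired hemispheres), 0 members were called for hemisphere and for either interaction, as without the block. Counts over all genes moved more: 1 gene for R55 against vehicle became 0 to 12 (0 to 50 with a mouse left out, the highest without AD), and 741 by label became 83 to 1378 (175 to 1076 with a mouse left out). Of 1656 alternative log2 fold changes of members, 1639 were counted as unmoved and 17 as moved. The margin behind this count was wider than the SD between mice of pdk4 given above (0.031). Larger moves included fits to 1 hemisphere, such as tsc22d3 for R55, 0.25 in injected and 0.68 in contralateral libraries. They also included fits that left out libraries, such as pdk4 for R55, 0.22 without mouse J against 0.11. The causes of these changes were not tested. Groups of 4 or 5 mice, with 1 vehicle mouse of 2-letter label, limit all comparisons.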
